A study of Homo sapiens with 8 samples.

Results

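Reh cells that received an shRNA against CBFA2T3 together with IKKβ(EE), a constitutively active form of the IκB kinase β, were compared with Reh cells that received IKKβ(EE). The arrays were chosen by their titles. There were 2 arrays of each kind, which makes 4 of the 8 arrays of the series, and equal replicate numbers were treated as pairs. The other 4 arrays held the same CBFA2T3 shRNA without IKKβ(EE) and a control shRNA (titled mock), 2 arrays each. Reh is an established human line of B-lineage precursor cells. The design text traces it to acute lymphoblastic leukemia, whereas the sample labels file it under non-Hodgkin lymphoma. Knockdown and kinase expression are labelled as transient. Whether a control shRNA was present beside IKKβ(EE) alone is not stated, so an effect of carrying any shRNA and an effect of lowering CBFA2T3 cannot be told apart in this comparison. The arrays of a group are labelled as biological replicates, but nothing says whether they came from separate cultures, so p-values measure the spread between these arrays.

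CBFA2T3 belongs to the ETO family of corepressors. These proteins do not bind DNA on their own. They are brought to genes by DNA-binding factors such as the E proteins and TAL1 and recruit histone deacetylases there. IKKβ phosphorylates the inhibitors that hold NF-κB in the cytoplasm, after which NF-κB enters the nucleus and activates genes for chemokines, cytokines, survival factors and its own inhibitors. In Hodgkin lymphoma cells, which derive from B cells, NF-κB is active without a stimulus and many B-lineage genes are silent. Published work on CBFA2T3 in that disease concerns CSF1R, a receptor of macrophages that binds colony-stimulating factor 1.

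All values are log2 signals after robust multi-array averaging (RMA), and a difference of 1 is a 2-fold change. Lineage markers were read first. Of the 10 B-lineage markers on the table, 9 were at or above log2 5 on all 8 arrays, among them PAX5, EBF1, CD79B and DNTT. The tenth, VPREB1, lay between 3.19 and 3.49 on the 4 compared arrays. Of 8 T and NK cell markers, 6 were under log2 5 on the 4 compared arrays, with CD3D, CD3E and CD2 among them. The exceptions were CD247, at 7.44 to 7.88, and NKG7, which read 5.40 and 5.66 with both transfections. Of 7 myeloid markers 6 were under log2 5, and ITGAM was the exception. Medians of the 8 arrays lay between 4.40 and 4.45, and arrays correlated with each other at 0.937 to 0.991 over the tested probe sets. In bulk RNA, fewer cells that express a gene and less RNA per cell cannot be told apart.

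The transfected genes were examined first. CBFA2T3 measured 8.23 and 7.83 in cells with both transfections, against 8.91 and 8.89 in cells with IKKβ(EE) alone. The groups did not overlap, which also held for 43.2% of all tested probe sets. The lower value of the shRNA-treated pair was that of replicate 2. The difference of -0.87 ± 0.14 (SE, n = 2 arrays per group) passed the test (limma adjusted p = 0.0255) and corresponds to 0.547 of the IKKβ(EE) level. Without the replicate block the adjusted p was 0.104. Without an IKKβ(EE) array, or without replicate 2 of both transfections, the difference ran from -0.96 to -0.71 and missed the threshold, with adjusted p between 0.0742 and 0.227.

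IKBKB, the gene of the introduced kinase, is read by 3 probe sets, of which 211027_s_at responded to the construct. That set measured 11.45 and 11.97 in cells with both transfections, against 10.85 and 10.39 in cells with IKKβ(EE) alone. It was 4.44 and 3.60 with the CBFA2T3 shRNA and 3.97 and 4.02 with the control shRNA, so only arrays labelled with IKKβ(EE) were high. The kinase transcript differed by 1.09 ± 0.28, without passing the test (adjusted p = 0.0714), and the paired differences were unequal at 0.60 in replicate 1 and 1.58 in replicate 2. The other IKBKB sets differed by -0.24 (adjusted p = 0.281) and 0.12 (adjusted p = 0.691). The part of this kinase level in the results below was not tested. CSF1R stayed near background at 5.18 and 5.02 with both transfections and 4.61 and 5.11 with IKKβ(EE) alone (0.24, 95% confidence interval -0.15 to 0.63, adjusted p = 0.410).

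**Figure D1:**
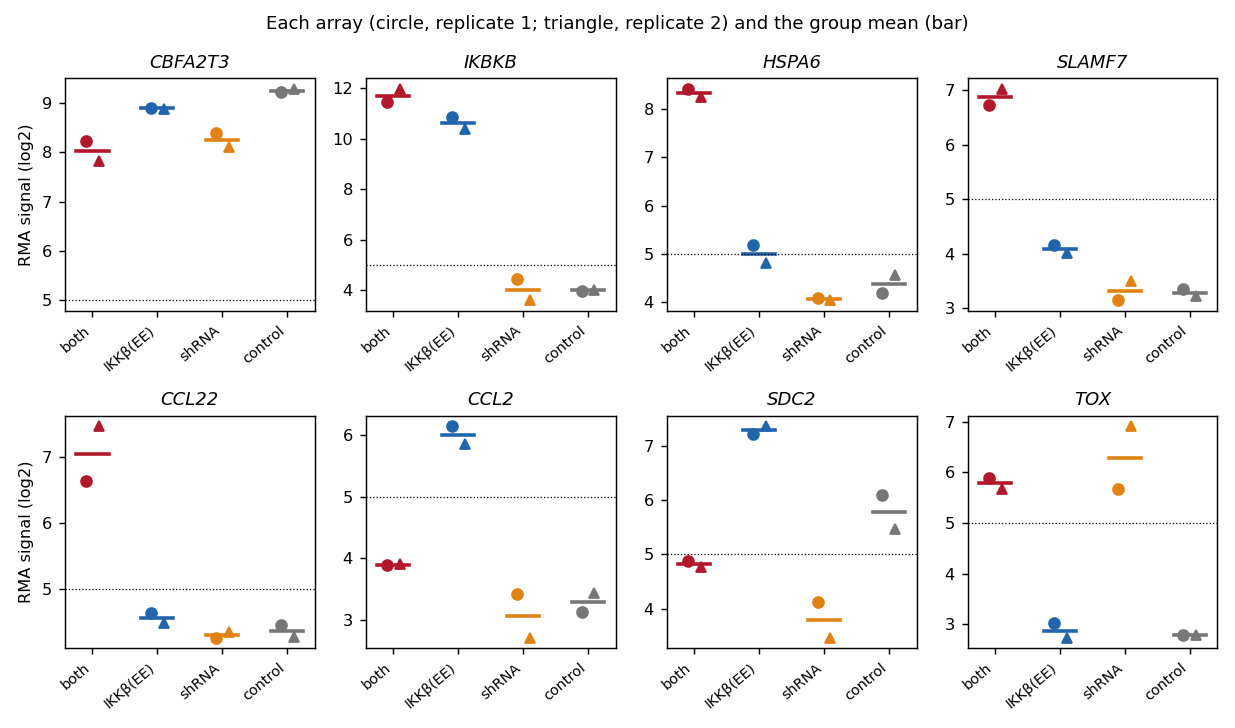
Log2 RMA signal of 8 genes on each array (circle, replicate 1, and triangle, replicate 2), with a bar at the group mean. Groups run from both transfections on the left through IKKβ(EE) and CBFA2T3 shRNA to control shRNA, and the dotted line marks the floor at log2 5. HSPA6, SLAMF7 and CCL22 are high with both transfections, CCL2 is high with IKKβ(EE) alone, and TOX is high on the 4 arrays with the CBFA2T3 shRNA.

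Adding the CBFA2T3 shRNA to IKKβ(EE) raised some genes and lowered others in like numbers. The stress chaperone HSPA6, the chemokines CCL4, CCL20 and CCL22 and the cytokine subunit IL23A were among the largest rises, between 5.68-fold and 10.2-fold. SDC2, FCGRT, COX7A2L and PROM1 were among the largest falls, to between 0.180 and 0.314 of the level with IKKβ(EE) alone. Of 24481 tested probe sets 1117 passed an adjusted p of 0.05, which is 4.56% of those tested. Of these, 533 were higher (2.18%) and 584 lower (2.39%). On 1 probe set per gene, 287 genes rose (2.51%) and 242 fell (2.11%) of 11449. By over 2-fold 202 called probe sets rose and 87 fell, and by over 4-fold 27 rose and 3 fell.

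The count of calls rests on the pairing and on single arrays. Without the replicate block 35 probe sets passed (0.143%), 21 of them higher (0.0858%) and 14 lower (0.0572%), all of them among the 1117, and 3621 had an unadjusted p under 0.05 where the paired fit had 6178. The paired fit called 102 without IKKβ(EE) replicate 1, 4 without IKKβ(EE) replicate 2, 61 without replicate 2 of both transfections and 1553 without replicate 1 of both. Values of the groups did not overlap at 1083 of the 1117 called probe sets, against 43.2% of all tested ones. The replicate 2 pair differed more: called rises had a median of 0.703 in pair 1 and 1.008 in pair 2, and called falls of -0.632 and -0.819. IKBKB also differed more in pair 2, and its part in this was not tested.

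HSPA6, an Hsp70 chaperone that human cells make under protein stress, had a larger fitted rise than the other genes named by symbol. It measured 8.42 and 8.27 with both transfections, against 5.17 and 4.81 with IKKβ(EE) alone. Both arrays with the combination stood more than 3 log2 units above all others, since the CBFA2T3 shRNA gave 4.07 and 4.03 and the control shRNA 4.19 and 4.56. The rise was 10.2-fold (log2 3.35 ± 0.17, limma adjusted p = 0.00139) and also passed without the block (adjusted p = 0.00255). The IKKβ(EE) mean was 4.99, near background, so the fold is uncertain, and the probe set was tested only through the combination arrays. A second HSPA6 probe set, 117_at, rose by 2.07 (adjusted p = 0.00554). HSPA6 has a near-identical neighbour copy, so probes of the set may read both.

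A probe set whose annotation holds several gene symbols, 200799_at, had a similar pattern. It measured 7.27 and 7.80 with both transfections and 3.52 and 3.86 with IKKβ(EE) alone, a fitted rise of 3.85 ± 0.12 (adjusted p = 8.332e-05), and it is left unnamed here. Its 6 other arrays lay between 2.72 and 3.86, far under the floor of log2 5, so it was tested only through the combination arrays and the size of its rise is uncertain. Of the 30 heat shock and chaperone genes listed 23 were tested by a probe set with 1 symbol. HSPA1A, HSPA1B, HSPA1L, HSPA8, HSPA4L, BAG3 and AHSA1 were not. Probe sets with several symbols, such as 200799_at, were not counted for the list, so a response of these genes through such sets is not covered by it. Of the 23 tested members 2 rose and none fell, HSPA6 and DNAJB4, an Hsp40 co-chaperone (0.85 ± 0.12, adjusted p = 0.0197), and the list median was 0.14 against 0.02 over all tested genes. The share called was 8.7%, beside 4.62% of all tested genes. HSPB1, a small heat shock protein, differed by 0.94 (adjusted p = 0.0532), HSPH1 by 0.35 (adjusted p = 0.143) and DNAJB1 by 0.06 (adjusted p = 0.747).

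The 250 bases before the HSPA6 start are shown because the gene's rise was large and its promoter held a pattern that few others hold. Capitals mark heat shock element cores, GAANNTTC or TTCNNGAA, which begin 180, 74 and 69 bases before the start. The cores at 74 and 69 bases overlap and form 3 alternating units, an arrangement found in 0.353% of the 9361 promoters of tested genes. At least 1 core lay in 10.3% of them. This element was added after HSPA6 was seen to rise. Sequences are RefSeq's on GRCh38.p14, read along the gene's strand.
HSPA6 (chr1:161524290-161524539, plus strand): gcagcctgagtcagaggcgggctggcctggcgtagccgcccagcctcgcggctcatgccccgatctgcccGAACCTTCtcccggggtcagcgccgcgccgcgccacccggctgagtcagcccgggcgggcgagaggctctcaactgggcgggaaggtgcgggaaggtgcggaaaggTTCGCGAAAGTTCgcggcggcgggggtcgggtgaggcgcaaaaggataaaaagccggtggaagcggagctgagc

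Chemokines were among the 15 genes with the largest rise. CCL20, the ligand of CCR6, measured 6.67 and 6.99 with both transfections, against 3.94 and 4.01 with IKKβ(EE) alone (7.26-fold, log2 2.86 ± 0.24, adjusted p = 0.00656). CCL22, the ligand of CCR4 and a product of Hodgkin tumour cells, measured 6.64 and 7.47, against 4.62 and 4.47 (5.68-fold, log2 2.51 ± 0.23, adjusted p = 0.00991). For both chemokines the arrays with IKKβ(EE) alone were under log2 5, near background, and the arrays with the combination were above 6. CCL4, a chemokine for monocytes and T cells, was already present with IKKβ(EE) alone at 7.70 and 8.29 and reached 10.28 and 11.61 with both (log2 2.95 ± 0.50, adjusted p = 0.0299). CCL4 has near-identical copies in the genome that its probes may also read.

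Cytokines and receptors were also among the rises. IL23A, the subunit that sets IL-23 apart from IL-12, measured 7.56 and 9.17 with both transfections, against 5.62 and 5.63 with IKKβ(EE) alone (log2 2.74 ± 0.37, adjusted p = 0.0194). IFNL2, an interferon of the lambda type, measured 7.05 and 8.53, against 4.97 and 4.78 (log2 2.92 ± 0.39, adjusted p = 0.0187). Its sequence is close to that of other lambda interferons, and IFNL1 rose too (1.78 ± 0.21, adjusted p = 0.0154). In both cytokines replicate 2 of the combination was the highest array and the IKKβ(EE) arrays lay close together. TNFRSF9, a costimulatory receptor of the TNF receptor family, rose by 2.00 ± 0.29 (adjusted p = 0.0211), and CCR7, the receptor that guides cells to lymph nodes, by 1.82 ± 0.23 (adjusted p = 0.0156).

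CCL2, the ligand of CCR2, moved the other way. It measured 3.88 and 3.90 with both transfections, against 6.14 and 5.85 with IKKβ(EE) alone, a change of -2.11 ± 0.22 (adjusted p = 0.0116, or 0.0298 without the block). Both combination arrays were under log2 5, as were the arrays without IKKβ(EE), which read somewhat lower still at 3.41 and 2.71 with the CBFA2T3 shRNA and 3.12 and 3.43 with the control shRNA. IKKβ(EE) alone had raised it by 2.72 over the control shRNA (adjusted p = 0.00147), a comparison that shares the IKKβ(EE) arrays with this one. Of 27 tested chemokines and cytokines 10 rose and 1 fell, with a median of 0.66. That is 40.7% called, beside 4.62% of all tested genes. CCL20 and CCL22 were tested only through the combination arrays, where they were high, so the filter favours this share. Without the block 2 rose and 1 fell. The count of rises was 4 without IKKβ(EE) replicate 1, 0 without IKKβ(EE) replicate 2, 3 without replicate 2 of both transfections and 13 without replicate 1 of both. Of 29 tested receptors 3 rose and 2 fell (17.2% called), and the falls were IL7R (-0.71 ± 0.10, adjusted p = 0.0203) and KIT (-0.87 ± 0.17, adjusted p = 0.0409).

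Other large rises were spread over proteases, phosphatases, surface proteins and transcription factors. MMP10, a secreted metalloprotease, measured 5.51 and 7.96 with both transfections, against 3.38 and 3.50 with IKKβ(EE) alone (log2 3.29 ± 0.53, adjusted p = 0.0264), and DUSP5, a phosphatase of ERK kinases, measured 6.24 and 7.85, against 3.96 and 4.16 (log2 2.98 ± 0.38, adjusted p = 0.0162). SLAMF7, a surface receptor of plasma and NK cells, measured 6.74 and 7.02, against 4.16 and 4.01 (log2 2.80 ± 0.15, adjusted p = 0.00159, or 0.00255 without the block). RUNX2, a transcription factor of bone and lymphoid cells, measured 6.22 and 7.06, against 3.96 and 4.39 (log2 2.47 ± 0.20, adjusted p = 0.00620). In none of these 4 genes did an IKKβ(EE) array reach the floor of log2 5, so their folds start from near background and are uncertain.

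The remaining rises started from measurable levels or close to them. MS4A1, the B-cell surface protein CD20, measured 8.97 and 10.45, against 6.86 and 7.72 (log2 2.42 ± 0.35, adjusted p = 0.0223), and all 3 of its probe sets rose. TUBB2A, a β-tubulin, rose by 2.30 ± 0.29 (adjusted p = 0.0161), GBP2, an interferon-induced GTPase, by 2.07 ± 0.33 (adjusted p = 0.0257) and CLECL1, a C-type lectin-like protein, by 1.99 ± 0.24 (adjusted p = 0.0154). All 15 rises were larger in the replicate 2 pair, and 4 of the 15 passed without the block: HSPA6, CCL20, SLAMF7 and CCL22. Of the 15, 9 had a mean under log2 5 with IKKβ(EE) alone. These 9 were tested only through the combination arrays, where they were high.

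**Figure D2:**
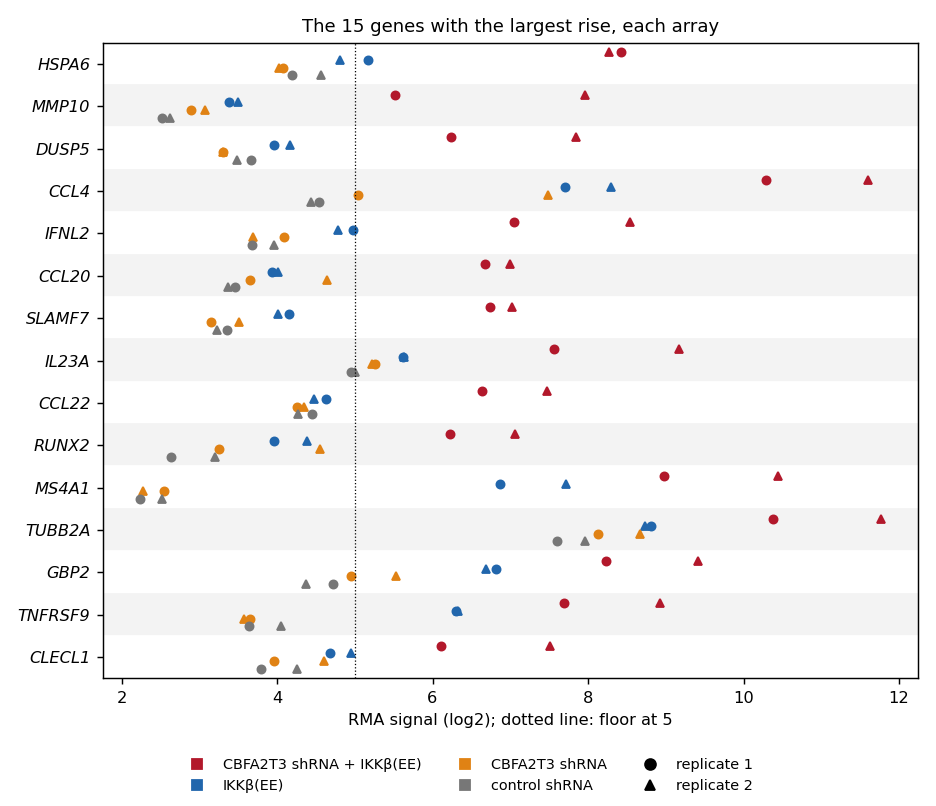
Log2 RMA signal on each of the 8 arrays for the 15 genes with the largest rise; colours are groups, circles replicate 1 and triangles replicate 2. Arrays with both transfections lie to the right of the IKKβ(EE) arrays in all 15 genes, and 9 of the 15 have IKKβ(EE) means left of the dotted floor at log2 5.

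The promoters of CCL20, CCL22 and IL23A are shown because they held a match to the NF-κB consensus, searched on both strands and marked in capitals. The match begins 79 bases before the start in CCL20 and 95 in IL23A, and 2 overlapping matches begin 186 and 185 bases before it in CCL22. Promoters were matched for 9 of the 15 rising genes, and 5 of the 9 held the consensus, as did 1 of 10 matched among the 15 falling genes. Other elements were as frequent there: the AP-1 element lay in 5 of the 9 and 0 of the 10, and the RUNX element in 5 of the 9 and 7 of the 10.
CCL20 (chr2:227813592-227813841, plus strand): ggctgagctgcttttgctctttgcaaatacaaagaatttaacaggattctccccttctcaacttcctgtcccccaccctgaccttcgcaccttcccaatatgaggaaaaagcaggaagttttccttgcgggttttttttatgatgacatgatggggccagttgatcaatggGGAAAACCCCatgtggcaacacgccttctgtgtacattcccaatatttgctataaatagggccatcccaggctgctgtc
CCL22 (chr16:57358533-57358782, plus strand): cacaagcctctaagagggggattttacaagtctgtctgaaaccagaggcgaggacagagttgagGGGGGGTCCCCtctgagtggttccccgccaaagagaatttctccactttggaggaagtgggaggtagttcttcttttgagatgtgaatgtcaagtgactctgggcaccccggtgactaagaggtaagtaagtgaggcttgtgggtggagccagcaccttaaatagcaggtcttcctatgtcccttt
IL23A (chr12:56338634-56338883, plus strand): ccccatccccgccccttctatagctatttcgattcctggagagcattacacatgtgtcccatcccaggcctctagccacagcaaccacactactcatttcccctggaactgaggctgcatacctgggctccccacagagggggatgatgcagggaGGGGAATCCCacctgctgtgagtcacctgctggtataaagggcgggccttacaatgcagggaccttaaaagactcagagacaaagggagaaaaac
Across all calls the consensus did not separate the directions. It was present in 16.4% of 226 promoters of genes that rose, in 16.2% of 197 promoters of genes that fell and in 13.2% of the 9361 tested. A match is a description of letters and does not show binding.

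Genes known as NF-κB targets were next. Of 49 tested targets 16 rose and none fell, 43 had a change above 0, and the median was 0.66, against 0.02 over all tested genes. The share called was 32.7%, beside 4.62% of all tested genes, of which 53.3% had a change above 0. CCL20 and CCL22, both on this list, were tested only through the combination arrays, where they were high. The rising members included CCL5, a chemokine for T cells, at 11.15 and 11.82 with both transfections and 10.13 and 10.30 with IKKβ(EE) alone (1.28 ± 0.15, adjusted p = 0.0144). TRAF1, an adaptor of TNF receptors, rose by 1.63 ± 0.21 (adjusted p = 0.0169), and BCL2A1, an inhibitor of apoptosis, by 1.70 ± 0.17 (adjusted p = 0.0116). Without the block 2 targets rose. The count was 5 without IKKβ(EE) replicate 1, 0 without IKKβ(EE) replicate 2, 4 without replicate 2 of both transfections and 27 without replicate 1 of both. The list median was 0.42 in pair 1 and 0.86 in pair 2, where IKBKB differed by 0.60 and 1.58, and its part in the result was not tested.

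The pathway's own components form another list. Of 29 tested pathway genes 2 rose and none fell (median 0.17): TRAF1 and NFKBIZ, a nuclear IκB protein (1.36 ± 0.18, adjusted p = 0.0172). That is 6.9% called, beside 4.62% of all tested genes. Of the 29 genes 24 had a change above 0, as did 53.3% of all tested genes. The following components were picked after their values were seen. NFKBIA, the inhibitor that NF-κB induces against itself, measured 11.76 and 12.51 with both transfections and 11.87 and 12.25 with IKKβ(EE) alone, so the groups overlapped (0.08 ± 0.17, adjusted p = 0.822). TNFAIP3, a ubiquitin-editing inhibitor of the pathway, differed by -0.09 ± 0.13 (adjusted p = 0.707), and RELB, an NF-κB subunit, by 0.06 ± 0.15 (adjusted p = 0.860). In cells with IKKβ(EE) alone these 3 genes were higher than with the control shRNA by 1.15, 0.67 and 1.96 (adjusted p = 0.0187, 0.0444 and 0.00144). A p above the threshold does not show that they were unchanged.

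Of 37 tested genes associated with Hodgkin lymphoma 11 rose and 1 fell (32.4% called, beside 4.62% of all tested genes). The list median was 0.60, and many of its genes are also on the NF-κB list. Its member CCL22 was tested only through the combination arrays. Besides CCL22, BCL2A1 and TRAF1 the rises included GATA3 (1.25 ± 0.22, adjusted p = 0.0312), a T-cell transcription factor found in Hodgkin cells, and CD274, the ligand PD-L1 that restrains T cells (1.19 ± 0.19, adjusted p = 0.0265). BATF3, an AP-1 partner factor, rose by 0.98 ± 0.15 (adjusted p = 0.0251). NOTCH1, a receptor of lymphoid fate, fell by 0.55 on the log2 scale (SE 0.11, adjusted p = 0.0407). Without the block 1 gene of this list rose, and without IKKβ(EE) replicate 2 none passed. The count of rises was 4 without IKKβ(EE) replicate 1, 2 without replicate 2 of both transfections and 16 without replicate 1 of both.

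Some interferon-response genes rose. Of 56 tested members 16 rose and none fell, 54 had a change above 0, and the median was 0.37. That is 28.6% called, beside 4.62% of all tested genes, of which 53.3% had a change above 0. The list median was 0.42 in pair 1 and 0.49 in pair 2. ISG15, a ubiquitin-like modifier, measured 12.35 and 12.59 with both transfections, against 11.35 and 11.13 with IKKβ(EE) alone (1.23 ± 0.18, adjusted p = 0.0234). IFIT1, which binds viral RNA, measured 10.79 and 10.93, against 9.95 and 9.49 (1.14 ± 0.24, adjusted p = 0.0446). EPSTI1, an interferon-induced gene, rose by 1.81 ± 0.37 (adjusted p = 0.0441) and ISG20, an RNA exonuclease, by 1.64 ± 0.28 (adjusted p = 0.0297). The groups did not overlap in these 4 genes, which also held for 97% of called probe sets and 43.2% of all tested ones. Without the block none of the list passed, and the count was 3 without IKKβ(EE) replicate 1, 9 without replicate 1 of both, and 0 without replicate 2 of either group.

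The interferon-stimulated response element, GAAANNGAAA on either strand, was counted in the promoters. It lay in 11.1% of the 226 promoters of genes that rose, in 1.52% of the 197 promoters of genes that fell and in 2.93% of the 9361 tested. Of 12 matched promoters of the interferon genes that rose, 9 held it, as did 29 of 45 promoters of all tested interferon genes. Outside that list it lay in 7.48% of 214 promoters of genes that rose. The promoters of ISG15 and IFIT1 are shown because each held 2 copies, in capitals, which in ISG15 overlap.
ISG15 (chr1:1013247-1013496, plus strand): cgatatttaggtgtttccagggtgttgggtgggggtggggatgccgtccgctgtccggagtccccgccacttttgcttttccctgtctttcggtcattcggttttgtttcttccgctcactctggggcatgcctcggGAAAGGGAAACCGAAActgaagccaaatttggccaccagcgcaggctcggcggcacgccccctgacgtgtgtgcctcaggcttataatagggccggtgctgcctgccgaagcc
IFIT1 (chr10:89392373-89392622, plus strand): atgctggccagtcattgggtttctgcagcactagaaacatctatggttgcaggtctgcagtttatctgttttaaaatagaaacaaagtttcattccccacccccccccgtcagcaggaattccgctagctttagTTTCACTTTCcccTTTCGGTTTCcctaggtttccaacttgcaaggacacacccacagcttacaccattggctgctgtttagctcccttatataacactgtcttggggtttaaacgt

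**Figure D3:**
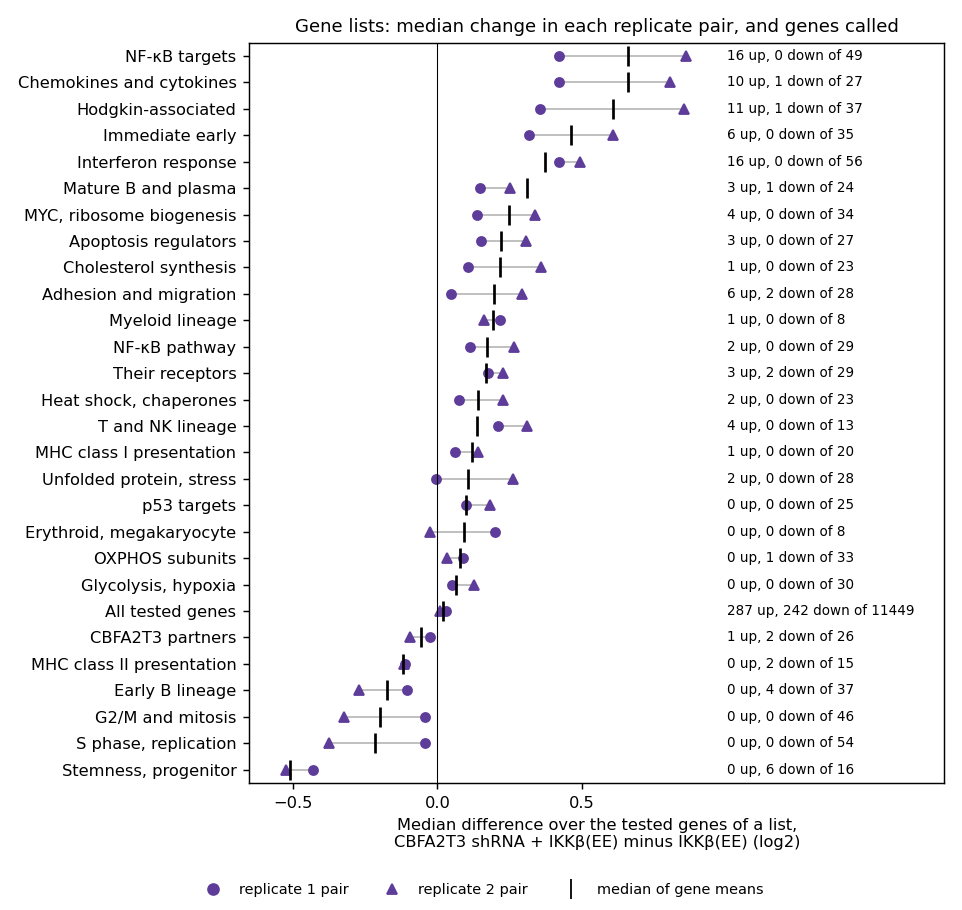
Median log2 difference, cells with both transfections minus cells with IKKβ(EE) alone, over the tested genes of each list in the replicate 1 pair (circle) and the replicate 2 pair (triangle), with a bar at the median over the fitted changes; counts of called genes stand at the right. NF-κB targets and chemokines lie farthest to the right at 0.66, stemness genes farthest to the left at -0.51, and all tested genes near 0.

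Immediate early genes, which respond to growth and stress signals, rose in 6 of 35 cases with none falling (median 0.46). That is 17.1% called, beside 4.62% of all tested genes. FOS, a component of AP-1, measured 7.39 and 8.52, against 5.55 and 7.10 (1.64 ± 0.26, adjusted p = 0.0257), and ATF3, a stress-induced transcription factor, rose by 1.24 ± 0.17 (adjusted p = 0.0190). Each FOS value with both transfections exceeded each value with IKKβ(EE) alone, although replicate 2 was the higher array in both groups. None of the list passed without the block or without IKKβ(EE) replicate 2, 1 rose without IKKβ(EE) replicate 1 or without replicate 2 of both transfections, and 12 rose without replicate 1 of both. The AP-1 element, TGANTCA, lay in 8.85% of promoters of genes that rose, 4.06% of those that fell and 4.22% of those tested.

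Genes of other lineages were read next. Of 34 listed T and NK genes 13 were tested and 4 rose, which is 30.8% of the 13, beside 2.51% of all tested genes, and 1 rose without the block: TOX, a nuclear factor of developing lymphocytes, LCK, a kinase of the T-cell receptor, GATA3 and NKG7, a granule protein. TOX and NKG7 met the floor of log2 5 only through arrays with the CBFA2T3 shRNA, where they were high. Listed genes that stayed low were not tested, so the filter favours the share called. TOX measured 5.89 and 5.68 with both transfections, against 3.02 and 2.74 with IKKβ(EE) alone (2.91 ± 0.33, adjusted p = 0.0141, or 0.0400 without the block), and LCK rose by 1.62 ± 0.19 (adjusted p = 0.0141). The T-cell receptor genes CD3D, CD3E and CD3G stayed under log2 5 on all 4 arrays, at 3.85 to 4.92. CD247, of the same receptor complex, lay between 7.44 and 7.88 on these arrays. Of 8 myeloid genes 1 rose, NCF1, an oxidase subunit with near-identical pseudogenes (0.85 ± 0.15, adjusted p = 0.0321), and of 8 erythroid and megakaryocytic genes none passed. Among 28 adhesion genes 6 rose and 2 fell, which is 28.6% called, while without the block 0 rose and 1 fell. The falls were SDC2, described below, and RASSF5 (-1.17 ± 0.16, adjusted p = 0.0188). Of the myeloid genes 12.5% were called, and 4.62% of all tested genes. At the upper end of the adhesion list were PLS3, an actin-bundling protein (1.97 ± 0.42, adjusted p = 0.0473), LGALS1, a lectin of Hodgkin cells (1.52 ± 0.28, adjusted p = 0.0362), and ANXA2 (1.49 ± 0.24, adjusted p = 0.0271).

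The largest fall was that of SDC2, a cell-surface heparan sulfate proteoglycan. It measured 4.88 and 4.76 with both transfections, against 7.23 and 7.36 with IKKβ(EE) alone (-2.47 ± 0.20, adjusted p = 0.00620, or 0.0273 without the block), and all 3 of its probe sets fell. FCGRT, the heavy chain of the neonatal Fc receptor, measured 5.82 and 6.26, against 7.44 and 8.19 (-1.77 ± 0.19, adjusted p = 0.0117). COX7A2L, an assembly factor of respiratory chain supercomplexes, measured 9.72 and 9.25, against 11.16 and 11.31 (-1.75 ± 0.17, adjusted p = 0.0110, or 0.0334 without the block). The arrays of the groups were separated by more than 1 log2 unit in each of these genes. Of 33 respiratory chain genes tested COX7A2L alone passed (3.03%, beside 4.62% of all tested genes), and the median of that list was 0.08.

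Other genes among the 15 largest falls encode signalling and membrane proteins. BMPR2, the type II receptor of bone morphogenetic proteins, measured 6.69 and 6.42, against 7.90 and 8.01 (-1.40 ± 0.14, adjusted p = 0.0103, or 0.0253 without the block). CAV1, the coat protein of caveolae, measured 7.68 and 8.56, against 9.17 and 9.77 (-1.35 ± 0.14, adjusted p = 0.0117), and FRK, a Src-related kinase, measured 4.73 and 6.12, against 6.38 and 7.45 (-1.49 ± 0.18, adjusted p = 0.0154). In CAV1 and FRK replicate 2 lay above replicate 1 in both groups, so the paired differences were closer than the group values. PRKCH, a protein kinase C, changed by -1.27 ± 0.24 (adjusted p = 0.0390) and TBC1D9, a protein with a Rab-GTPase activating domain, by -1.41 ± 0.15 (adjusted p = 0.0117).

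The other large falls were the homeobox factor IRX3 (-1.54 ± 0.16, adjusted p = 0.0117), the secreted FGFBP2 (-1.50 ± 0.17, adjusted p = 0.0141), the actin nucleator COBL (-1.29 ± 0.17, adjusted p = 0.0178), PRAC1 (-1.43 ± 0.22, adjusted p = 0.0256) and the non-coding LINC01922 (-1.42 ± 0.29, adjusted p = 0.0444). Of the 15 largest falls 12 were larger in the replicate 2 pair. SDC2, COX7A2L and BMPR2 passed without the block.

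**Figure D4:**
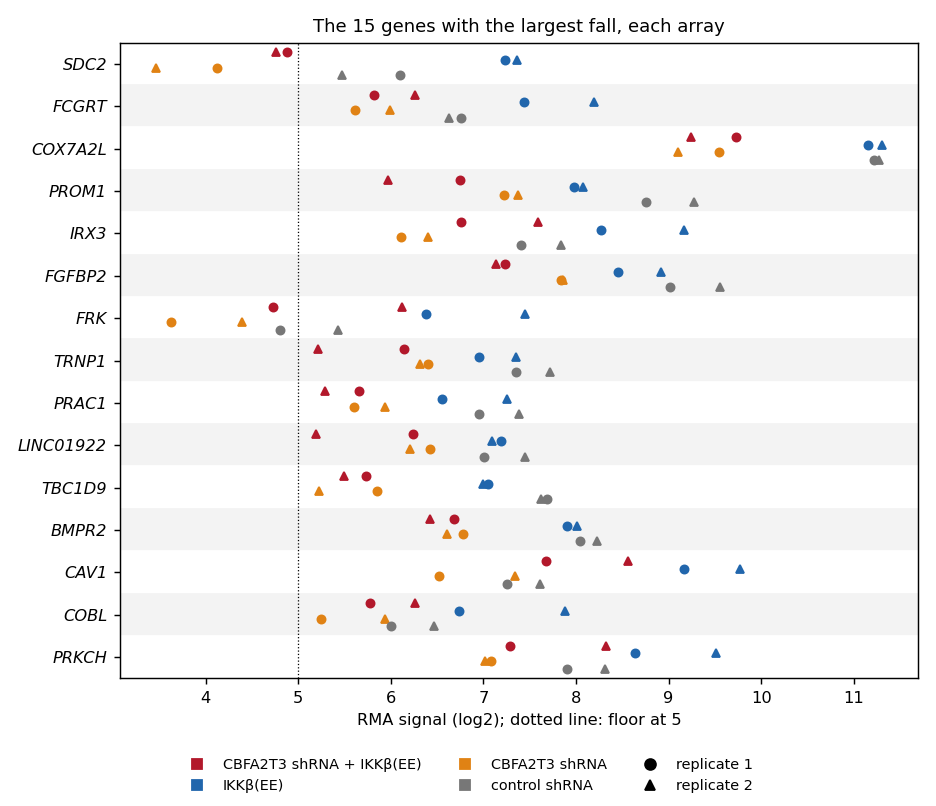
Log2 RMA signal on each of the 8 arrays for the 15 genes with the largest fall; colours are groups, circles replicate 1 and triangles replicate 2. Arrays with both transfections lie to the left of the IKKβ(EE) arrays in all 15 genes, and in all 15 the CBFA2T3 shRNA arrays have a lower mean than the control shRNA arrays.

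Several progenitor genes fell. Of 16 tested genes of the stemness and progenitor list 6 fell and none rose, with a median of -0.51. That is 37.5% called, beside 4.62% of all tested genes. PROM1, the progenitor surface protein CD133, measured 6.74 and 5.97 with both transfections, against 7.98 and 8.07 with IKKβ(EE) alone (-1.67 ± 0.26, adjusted p = 0.0257). LMO2, a bridging protein of haematopoietic transcription complexes, measured 7.18 and 6.62, against 8.24 and 7.97 (-1.21 ± 0.22, adjusted p = 0.0346). TRNP1, a nuclear protein of dividing progenitors, changed by -1.47 ± 0.30 (adjusted p = 0.0413), and KIT, MN1 and MECOM by -0.87, -0.69 and -0.53 (adjusted p = 0.0409, 0.0336 and 0.0407). None of the 6 passed without the block. The list's count was 0 without either IKKβ(EE) array or without replicate 2 of both transfections, and 4 without replicate 1 of both.

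Early B-lineage genes went the same way in part. Of 37 tested 4 fell and none rose (10.8% called, beside 4.62% of all tested genes), and the median was -0.18. The falls were PROM1, IL7R, the receptor of IL-7, BCL11A, a zinc-finger repressor (-0.60 ± 0.12, adjusted p = 0.0411), and MME, the surface enzyme CD10 (-0.58 ± 0.12, adjusted p = 0.0446). The count was 0 without the block, without either IKKβ(EE) array or without replicate 2 of both transfections, and 6 without replicate 1 of both. The mean of the B-lineage markers was 10.32 and 10.11 with both transfections, against 10.44 and 10.44 with IKKβ(EE) alone. Of 24 genes of mature B and plasma cells 3 rose, SLAMF7, MS4A1 and SPIB, an ETS factor of B cells (1.28 ± 0.22, adjusted p = 0.0304), and 1 fell, IGHD, the immunoglobulin δ chain (-1.07 ± 0.20, adjusted p = 0.0386). Among 15 MHC class II genes HLA-DPB1 (-1.13 ± 0.16, adjusted p = 0.0202) and HLA-DRB1 (-0.82 ± 0.12, adjusted p = 0.0234) fell and none rose. The mature B and class II lists had 16.7% and 13.3% called. HLA-DR genes have near-identical copies. HLA-DRA and CD74 differed by -0.07 (adjusted p = 0.688) and 0.08 (adjusted p = 0.680).

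Among 26 tested partners and relatives of CBFA2T3, RUNX2 rose and LMO2 and CBFA2T3 itself fell. That is 11.5% called, beside 4.62% of all tested genes. The histone deacetylase HDAC3 differed by -0.06 ± 0.10 (adjusted p = 0.751), the related corepressor CBFA2T2 by -0.05 ± 0.13 (adjusted p = 0.844) and the E protein gene TCF3 by -0.15 ± 0.10 (adjusted p = 0.398). These 3 were picked after their values were seen. The RUNX element, TGTGGT or TGCGGT, lay in 21.2% of promoters of genes that rose, 25.4% of those that fell and 18.4% of those tested, and the E-box CAGGTG in 16.8%, 17.3% and 18.0%.

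Cell cycle genes did not pass singly. None of 46 tested G2/M and mitosis genes and none of 54 S-phase genes passed, and only 5 and 8 of them had changes above 0. Of all tested genes 53.3% had a change above 0. The medians of the G2/M and S-phase lists were -0.20 and -0.21, with -0.04 in pair 1 of either list and -0.32 and -0.38 in pair 2. CDC7, a kinase that starts replication, differed by -0.79 ± 0.18 (adjusted p = 0.0565) and TPX2, a spindle factor, by -0.49 ± 0.16 (adjusted p = 0.117). At an unadjusted p the paired fit put 6178 of all tested probe sets under 0.05. Of 34 MYC and ribosome biogenesis genes 4 rose and 33 had changes above 0, with a median of 0.25. The share called was 11.8%, beside 4.62% of all tested genes. RRP12, a factor of ribosomal RNA processing, was the largest of the 4 (0.86 ± 0.18, adjusted p = 0.0470).

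Among 27 apoptosis regulators 3 rose, BCL2A1, CFLAR, an inhibitor of death-receptor signalling (1.27 ± 0.21, adjusted p = 0.0283), and HRK, a BH3-only protein that promotes death (0.68 ± 0.12, adjusted p = 0.0327). No p53 target of 25 and no glycolysis or hypoxia gene of 30 passed. The MHC class I list had 1 rise of 20, TAP1, a peptide transporter (0.72 ± 0.14, adjusted p = 0.0396), and the unfolded protein list had 2 of 28, ATF3 and PPP1R15A, a phosphatase subunit (0.94 ± 0.17, adjusted p = 0.0345). Among 23 cholesterol synthesis genes LSS, lanosterol synthase, rose (0.54 ± 0.11, adjusted p = 0.0455) and 20 had changes above 0. The class I, unfolded protein and cholesterol lists had 5.0%, 7.14% and 4.35% called, near the 4.62% of all tested genes. The apoptosis list had 11.1% called. Changes above 0 made up 53.3% of all tested genes.

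The same shRNA was also given without IKKβ(EE). The CBFA2T3 shRNA against the control shRNA uses 4 other arrays, so the effects share no array, although all 8 arrays enter 1 estimate of the spread. In cells without IKKβ(EE) 1890 probe sets passed (7.72%), 975 higher (3.98%) and 915 lower (3.74%), and 169 without the block (0.690%). That count was 11 without CBFA2T3 shRNA replicate 2, 645 without its replicate 1, 65 without control shRNA replicate 2 and 1084 without its replicate 1. Of the 1117 probe sets called with IKKβ(EE), 94.7% had the same sign without it, against 74.2% of all tested probe sets. Called in both were 656 probe sets, 58.7% of the 1117 and 34.7% of the 1890, of which 653 changed in the same direction. Across all tested probe sets the effects correlated at 0.709 (Pearson) and 0.682 (Spearman), which is a description, since probe sets are not independent. Read by pair, the Pearson values were 0.531 and 0.648 for pair 1 with IKKβ(EE) against pairs 1 and 2 without it, and 0.535 and 0.650 for pair 2.

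The named genes were then read in those arrays. All 15 largest falls had the same sign without IKKβ(EE), and 11 of them passed there in the same direction. COX7A2L measured 9.54 and 9.10 with the CBFA2T3 shRNA, against 11.22 and 11.27 with the control shRNA, a change of -1.93 (adjusted p = 0.00458) beside -1.75 with IKKβ(EE). Of the 15 largest rises 11 had the same sign, but RUNX2 was the only one of them that passed in the same direction without IKKβ(EE) (0.98, adjusted p = 0.0311). Passing in 1 comparison alone does not show that the effects differ. In the direct test given below, only HSPA6 and SLAMF7 of the 15 passed. TOX measured 5.67 and 6.91 with the CBFA2T3 shRNA and 2.80 and 2.79 with the control shRNA (3.50, adjusted p = 0.00458), so it was high on all 4 arrays with the shRNA. The interferon list rose in 16 of 56 cases without IKKβ(EE) as well, where 4.31% of all tested genes rose and 3.49% fell, with a median of 0.40 beside 0.37. For the NF-κB targets the counts were 6 higher and 2 lower with a median of 0.23, beside 16 and 0 with a median of 0.66. No gene of the interferon or NF-κB target list was called for the difference between the effects.

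**Figure D5:**
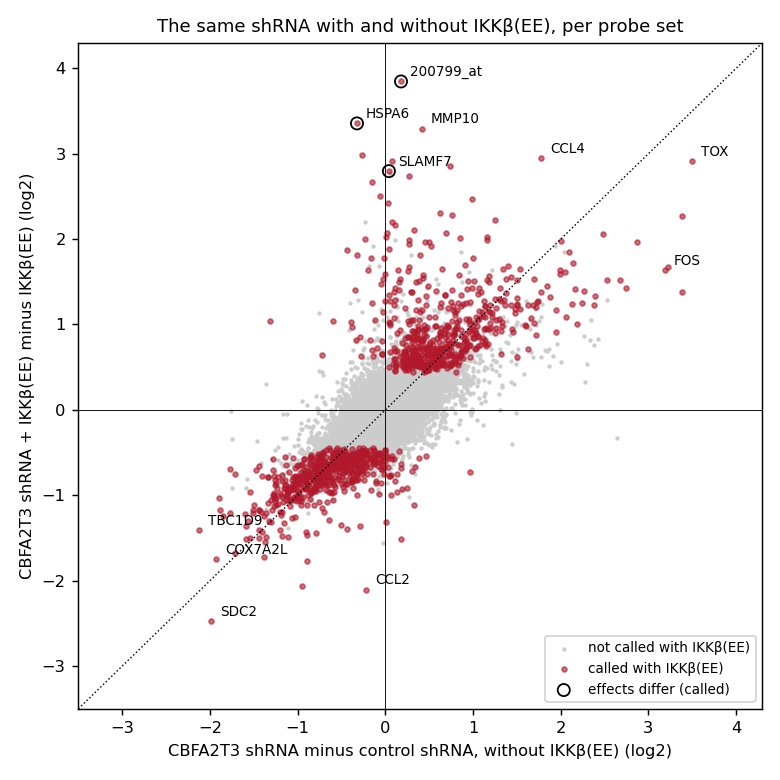
Log2 change of each of the 24481 tested probe sets, CBFA2T3 shRNA plus IKKβ(EE) minus IKKβ(EE) on the vertical axis and CBFA2T3 shRNA minus control shRNA on the horizontal axis; red points passed the test on the vertical axis, circled points differed between the effects, and the dotted line marks equal changes. Most red points lie in the quadrants of equal sign, and a column of rises, HSPA6 and SLAMF7 among them, stands near 0 on the horizontal axis.

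The difference between the effects was tested directly. At 3 probe sets (0.0123% of those tested) the shRNA effect was larger in cells with IKKβ(EE) than in cells without it. HSPA6 changed by 3.35 with IKKβ(EE) and -0.32 without it (difference 3.68 ± 0.24, adjusted p = 0.00868), and 200799_at by 3.85 and 0.18 (difference 3.67 ± 0.17, adjusted p = 0.00147). SLAMF7 changed by 2.80 and 0.04 (difference 2.75 ± 0.21, adjusted p = 0.0210). It measured 3.15 and 3.51 with the CBFA2T3 shRNA and 3.35 and 3.23 with the control shRNA, all near background. None was smaller with IKKβ(EE). No probe set passed when either array with the CBFA2T3 shRNA alone was left out, and 57 did without replicate 1 of both transfections. HSPA6, 200799_at and SLAMF7 also passed without the block (adjusted p = 0.0180, 0.0448 and 0.0448). Each of these 3 met the floor only through the combination arrays, where it was high. CCL22 (2.56 ± 0.33, adjusted p = 0.150), CCL20 (2.12 ± 0.33, adjusted p = 0.208), CCR7 (2.13 ± 0.32, adjusted p = 0.208) and CCL2 (-1.89 ± 0.31, adjusted p = 0.219) had large differences that missed the threshold, so for them a difference between the effects was not shown.

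Some genes were set beside their response to IKKβ(EE) alone against the control shRNA. That comparison shares the IKKβ(EE) arrays with this one, with opposite sign. A high reading on them favours both a rise there and a fall here, so its values are listed and not related. It called 363 genes higher (3.17%) and 58 lower (0.507%). BCL2A1 was raised by 5.43 with IKKβ(EE) alone (adjusted p = 3.523e-05) and differed by 1.70 with the shRNA added. MS4A1 was raised by 4.91 (adjusted p = 0.00100) and differed by 2.42. SDC2 (1.51, adjusted p = 0.0113), FCGRT (1.12, adjusted p = 0.0272), IRX3 (1.10, adjusted p = 0.0175), FRK (1.79, adjusted p = 0.00350), CAV1 (2.04, adjusted p = 0.000945) and COBL (1.08, adjusted p = 0.0207) were raised by IKKβ(EE) alone and lower when the shRNA was added, by the values given above. SDC2 stood at 4.88 and 4.76 with both transfections, under its control shRNA values of 6.10 and 5.47, whereas CAV1 at 7.68 and 8.56 stayed above its control shRNA values of 7.26 and 7.61. With the CBFA2T3 shRNA alone SDC2 was lower still, at 4.13 and 3.46, and CAV1 read 6.52 and 7.34. The shRNA thus lowered SDC2 without IKKβ(EE) too (-1.99, limma adjusted p = 0.004845), beside -2.47 with it. A difference between these effects was not shown (limma adjusted p = 0.964).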

How the data were processed

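The deposited values are log2 probe set signals on Affymetrix U133 Plus 2.0 arrays, made by the authors with RMA, per the submitters' processing notes. Its version was not given in the sources used here. RMA sets arrays to a common distribution, which removes a shift shared by most transcripts, and understates folds of dim genes. No detection calls were used. Of 54675 probe sets, 62 controls and 30132 that stayed under log2 5 on all or all but 1 of the arrays were left out, which left 24481. GEO's platform annotation gave a single symbol for 20746 of these (11449 genes), and a gene is read by its probe set with the highest mean.

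The fit was made in limma 3.58.1 (R 4.3.3), with 4 group means, the replicate number as a block and 1 spread over all 8 arrays (3 residual and 4.36 prior degrees of freedom). Tests were two-sided, with Benjamini-Hochberg adjustment over all 24481 probe sets and calls under 0.05. With 2 arrays a group, an exact permutation test could reach no p below 0.333. Values after ± are standard errors from the fit. Precision is limited by the number of arrays, and a difference had a median standard error of 0.12. Equal numbers were treated as pairs because the comparison was defined with the replicate number as the pair. Differences between replicates 2 and 1 correlated in all 6 pairs of groups (0.344 to 0.577), while the labels do not say what a number marks. The fit was tested on data simulated from this same model, with its replicate block and independent noise. There it recovered most of the larger planted changes, and its share of false calls ran somewhat above the nominal one. Since the block was built into those data, they cannot show whether it is right for these arrays.

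The text names the 15 largest rises and 15 largest falls among called probe sets of 1 symbol, given that the groups did not overlap, the pairs had 1 sign and the higher group had a mean of at least log2 6. It also names called differences of the effects, CBFA2T3, IKBKB, CSF1R and up to 3 members at either end of each list. Further list members were named outside this rule, among them ISG15, IFIT1, CCL5, IFNL1, CD274, BATF3, NKG7, MN1, MECOM and MME. So were the uncalled HSPB1, HSPH1, DNAJB1, HLA-DRA and CD74. The members and lists were chosen with earlier results of these data known. Lists are described by counts and medians, with no test. Members such as CCL20, CCL22, SLAMF7, RUNX2 and DUSP5 met the floor only through the combination arrays, which favours the share called in their lists. Promoters are RefSeq's on GRCh38.p14, searched from 250 bases before to 50 after the start. Of 4 erythroid markers and 6 fibroblast and epithelial markers, 1 each was at or above log2 5 on all 8 arrays. Alternatives left out the replicate block, the other 4 arrays, the floor or each array in turn, or used cyclic loess, equal medians, array weights, 1 probe set per gene, moderation with a trend and robust prior, or a higher floor (log2 6).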

Additional observations from a re-analysis of the deposited data

Results flagged for a closer look

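In 3 probe sets the effect of the CBFA2T3 shRNA differed between cells with IKKβ(EE) and cells without it, by a test of the difference itself. For HSPA6 the difference was 3.68 on the log2 scale (limma adjusted p = 0.00868, or 0.0180 with no replicate block), with both arrays of the combination high and the 6 others at or under 5.17. For 200799_at, whose annotation holds several symbols, it was 3.67 (adjusted p = 0.00147, or 0.0448 with no replicate block). For SLAMF7 it was 2.75 (adjusted p = 0.0210, or 0.0448 with no replicate block). When 1 array was left out, the adjusted p of the 3 differences reached 0.0699 for 200799_at, 0.159 for HSPA6 and 0.180 for SLAMF7 with the block, and 0.457, 0.236 and 0.457 with no replicate block. Their sizes stayed between 2.58 and 3.96. In each of the 3 probe sets the IKKβ(EE) mean was under log2 5, so the sizes start from near background and are uncertain. Each was tested only through the combination arrays, where it was high. The introduced IKBKB transcript differed by 1.09 between cells with both transfections and cells with IKKβ(EE) alone (adjusted p = 0.0714), and its part in these differences was not tested.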

How the results depend on the processing

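No direction among the 30 named rises and falls turned under any alternative, but most calls depended on the replicate block and on single arrays. With no replicate block 7 of the 30 passed, and without IKKβ(EE) replicate 2 only 2 did. For both transfections over IKKβ(EE), 1117 probe sets passed; the count was 35 with no replicate block, 695 on the 4 compared arrays alone, 643 with no floor, 2421 with trend and robust moderation and 674 with 1 probe set per gene, where fewer features were tested. Leaving out 1 array gave 4 to 1553 calls with the block and 3 to 399 without it. For the CBFA2T3 shRNA over the control shRNA, 1890 passed; the count was 169 with no replicate block, 1114 with no floor, 2863 with trend and robust moderation, 1080 with 1 probe set per gene, and 11 to 2125 (0 to 297 with no block) with 1 array left out, the lowest without CBFA2T3 shRNA replicate 2. For the difference of the effects 3 passed; the count was 10 with no floor, 9 with a floor at log2 6, 17 with trend and robust moderation, 6 with array weights, 10 with equal medians, 5 with 1 probe set per gene, and 0 to 57 (0 to 24 with no block) with 1 array left out. CBFA2T3 changed by -0.87 with and without the replicate block (adjusted p = 0.0255 and 0.104) and by -1.03 to -0.71 with 1 array left out (-1.07 to -0.67 with no block). IKBKB differed by 1.09 and passed with trend and robust moderation (adjusted p = 0.0260) and without replicate 1 of both transfections (1.55, adjusted p = 0.0225); with 1 array left out it ranged from 0.62 to 1.55 (0.83 to 1.35 with no block). Uncalled values changed sign when 1 array was left out: IKBKB on 209342_s_at (-0.09 to 0.33, or -0.12 to 0.36 with no block), CSF1R (-0.048 to 0.53, or -0.01 to 0.49), AHSP (-0.12 to 0.02, or -0.15 to 0.050), CDT1 (-0.11 to 0.47, or -0.05 to 0.40), CENPN (-0.05 to 0.25, or -0.10 to 0.29) and, with no block, MDM2 (-0.44 to 0.035). A lone array of a group is assumed to vary like the other groups. The fit on the 4 compared arrays gives no value for the shRNA alone or for the difference, and 1 probe set per gene leaves out 211027_s_at of IKBKB. The cause of these shifts was not tested.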
